A study of Homo sapiens with 14 samples.

Results

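The genes described here are those whose RNA was higher in every edited MDA-MB-231 line than in the unedited cells. A gene was taken when each of the 12 libraries from the 6 edited lines held at least 2 TPM (transcripts for each 1000000 counted) and at least 1.5 times the mean of the 2 Parental libraries. Of 19410 genes in the table, 91 met this rule, or 0.823% of the 11053 genes that reached 2 TPM in all 12 edited libraries. The mirror rule, a Parental mean of at least 2 TPM and all 12 edited libraries at or below that mean divided by 1.5, took 290 genes, or 2.42% of the 11985 it could have taken. Because the comparison with Parental cells chose the 91 genes, their excess over Parental is given as a description, with no test.

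MDA-MB-231 is a human triple-negative breast cancer line. Untreated Parental cells were compared with CRISPR/Cas9 lines that lacked SAP30 (SAP30-KO1 and SAP30-KO2), both SIN3A and SIN3B (SIN3A+SIN3B-DKO1 and SIN3A+SIN3B-DKO2), or MLL1 (MLL1-KO1 and MLL1-KO2), with 2 RNA-seq libraries for each of the 7 conditions. The question behind the comparison was which genes each of these chromatin proteins turns on or off. All edited lines had received guide RNA vectors, had been selected with puromycin and were mixtures of several single knockout cells grown out, whereas Parental cells had gone through none of these steps. For the 91 genes, the loss of a chromatin protein and this shared handling therefore cannot be told apart.

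SIN3A and SIN3B are scaffold proteins that carry histone deacetylases to promoters, and SAP30 is a small subunit of the same complex. MLL1 (KMT2A, listed in the table as MLL) methylates lysine 4 of histone H3 at active promoters and enhancers. The SIN3 complex is known mainly as a corepressor and MLL1 as a coactivator.

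SAP30 RNA was at 78.9 and 82.8 TPM in the Parental libraries and at 2.75 to 4.96 TPM in the 4 SAP30-KO libraries. MLL RNA was at 56.7 and 49.0 TPM in Parental cells, 15.8 to 27.7 TPM in the MLL1-KO libraries and 23.01 to 35.4 TPM in the SAP30-KO libraries. SIN3B RNA was lower in the SIN3A+SIN3B-DKO libraries, at 43.5 to 50.2 TPM against 75.1 and 77.4 TPM, and SIN3A RNA was not, at 55.1 to 62.5 TPM against 43.1 and 45.4 TPM, and a small edit that stops the protein need not lower its RNA. In all 14 libraries VIM, a marker of mesenchymal-like lines, was at 5741 TPM or more and ESR1 at 0.191 TPM or less. The summed level of 6 such markers, VIM among them, was 8604 to 8717 TPM in Parental and 8182 to 11250 TPM in edited libraries. Their median log2 change from Parental was -0.31, beside 0.0003 for all genes tested. A list of 6 leukocyte markers summed to 160 to 291 TPM, nearly all of it from 1 gene. The summed level of 4 luminal epithelial markers (EPCAM, CDH1, GATA3, KRT19) was 465 to 476 TPM in Parental and 123 to 269 TPM in edited libraries. Most of this sum was KRT19, at 109 to 444 TPM over the 14 libraries. EPCAM was at 5.33 to 19.2 TPM, GATA3 at 8.16 to 17.3 TPM and CDH1 at 1.245 TPM or less. The part of the difference in summed level in the results below was not tested. In bulk RNA, a change in the share of cells that express a gene and a change in the level per cell cannot be told apart.

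The Parental mean of the 91 genes ranged from 0.92 TPM for DCLK1 to 719 TPM for SLC25A5, with a median of 5.45 TPM. There were 42 genes under 5 TPM, 39 from 5 to under 50 TPM and 10 at 50 TPM or more. The median edited library stood 1.59 to 9.58 times above the Parental mean, with a median over the 91 genes of 2.42. Measured from the lowest edited library, 25 genes were at least 2 times above Parental and 26 were under 1.6 times above it. The nearest genes inside the rule were SPTLC3 (lowest edited value 22.63 TPM against a limit of 22.62 TPM), ARID5A (12.65 against 12.61 TPM) and ALG13 (11.50 against 11.43 TPM). Just outside it were MBD1 (34.67 against 34.68 TPM), HIVEP3 (14.13 against 14.14 TPM) and the X-linked FOXO4 (Parental mean 8.19 TPM, lowest edited value 12.3 TPM).

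**Figure D1:**
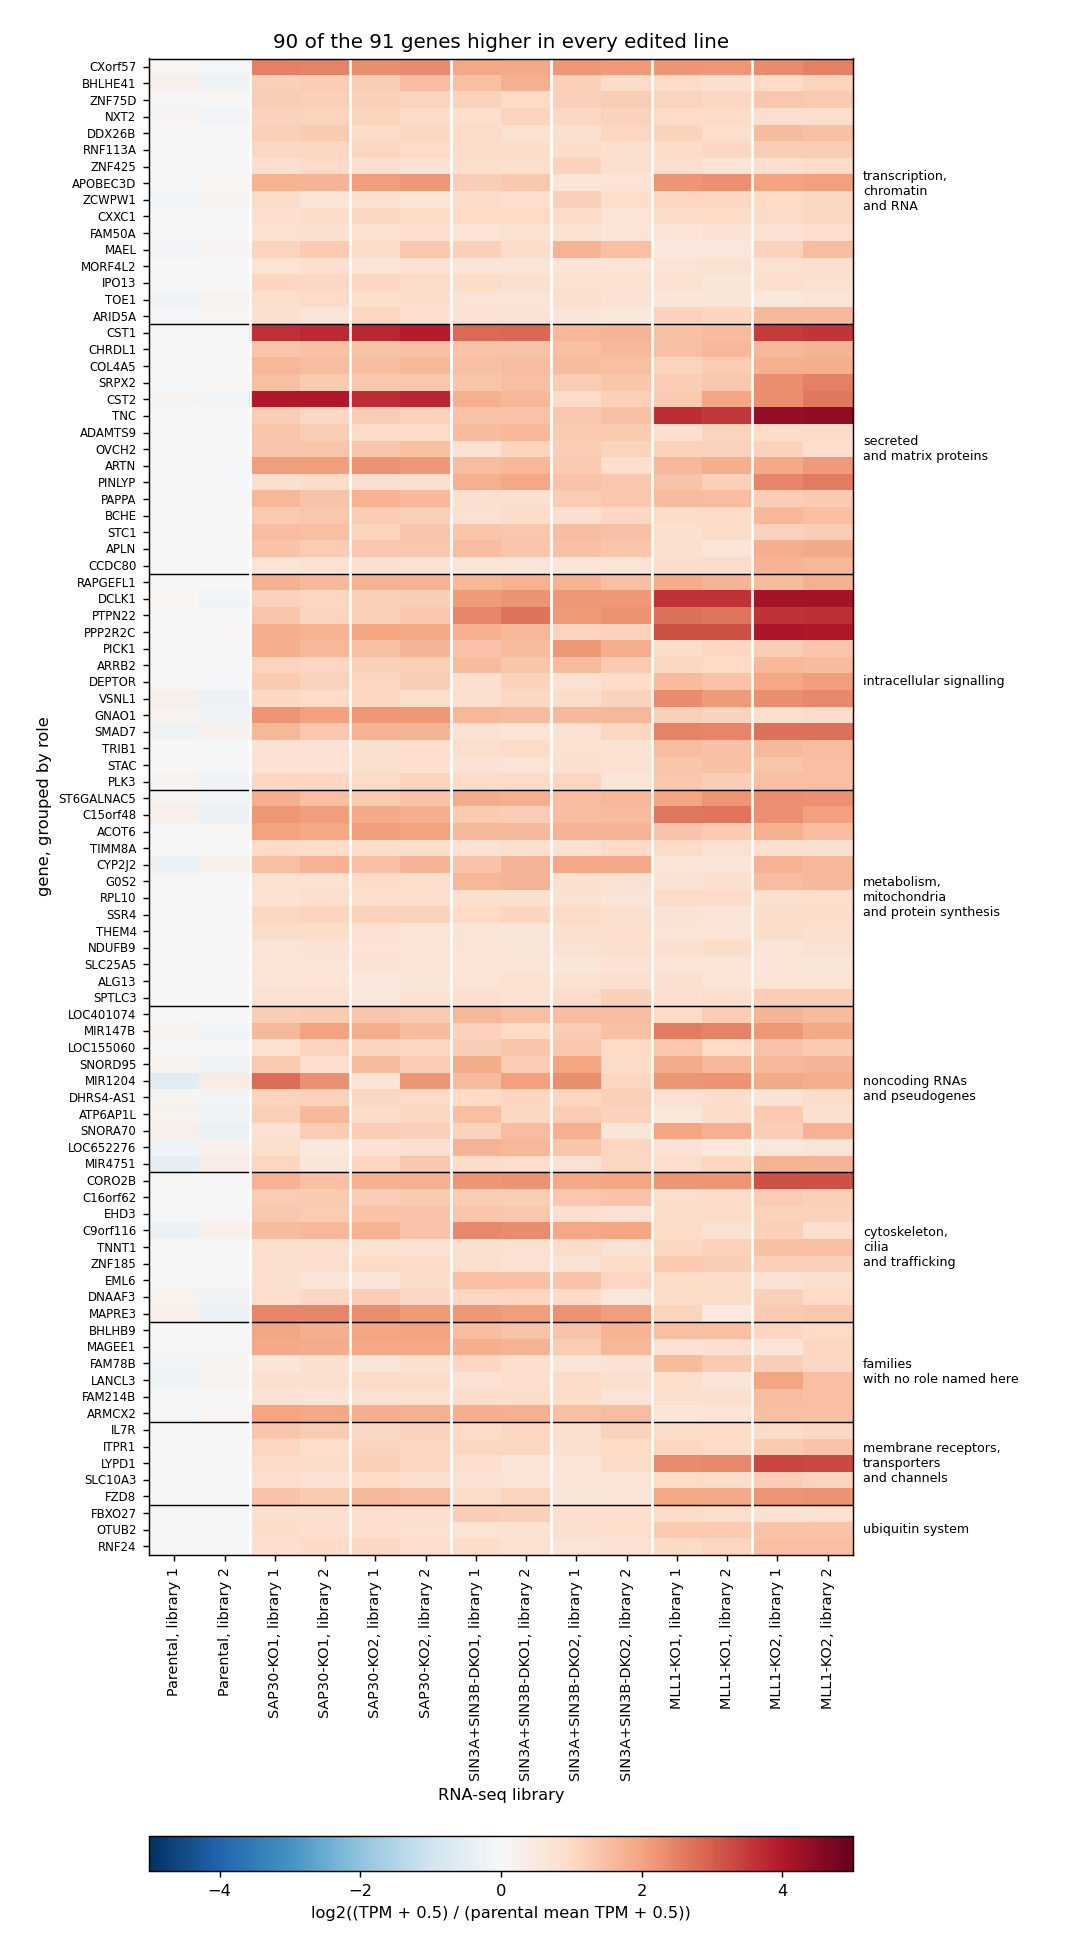
Level of 90 of the 91 genes (rows, grouped by role) in each of the 14 libraries (columns), as the log2 ratio of TPM + 0.5 to the Parental mean + 0.5. White is the Parental mean and red is higher; by the rule every edited cell is red, and the depth of red differs most between lines for TNC, CST2, DCLK1 and PPP2R2C.

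By ratio of the lowest edited library to the Parental mean, CXorf57 stood first at 4.37. CXorf57, now named RADX, encodes a protein that binds single-stranded DNA at replication forks and lies at chrX:105855160-105922669 (GRCh37, plus strand). Its level was 2.24 and 1.87 TPM in Parental cells (2.06 ± 0.27, SD, n = 2), 14.3 and 13.9 TPM in SAP30-KO1, 12.3 and 12.7 TPM in SAP30-KO2, 9.35 and 8.98 TPM in SIN3A+SIN3B-DKO1, 10.9 and 10.7 TPM in SIN3A+SIN3B-DKO2, 11.25 and 10.97 TPM in MLL1-KO1, and 12.8 and 14.3 TPM in MLL1-KO2. The 12 edited libraries lay close together, and the Parental libraries lay far below all of them.

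CORO2B, an actin-binding coronin on chromosome 15, followed at a ratio of 2.99. It rose from 5.57 and 5.32 TPM in Parental cells to between 16.3 and 27.99 TPM in 5 of the lines, and MLL1-KO2 stood apart at 53.2 and 53.4 TPM. RAPGEFL1, related to the exchange factors of the small GTPase RAP and located on chromosome 17, came next at 2.90. It was the most even of the non-X genes: Parental libraries held 21.7 and 20.6 TPM, the edited libraries 61.5 to 77.4 TPM with a median of 71.0 TPM, and the highest and lowest line means were 1.12-fold apart. CHRDL1, a secreted antagonist of bone morphogenetic proteins on the X chromosome, was nearly as even, at 25.2 and 28.2 TPM in Parental and 71.0 to 86.7 TPM in edited libraries.

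CST1 had the largest excess by the median edited library, 9.58 times the Parental mean. CST1 and CST2 encode secreted inhibitors of cysteine proteases and lie next to each other on chromosome 20. CST1 was at 19.4 and 18.2 TPM in Parental cells, 236 and 258 TPM in SAP30-KO1, 261 and 290 TPM in SAP30-KO2, 136 and 141 TPM in SIN3A+SIN3B-DKO1, 59.7 and 62.4 TPM in SIN3A+SIN3B-DKO2, 52.5 and 57.8 TPM in MLL1-KO1, and 219 and 227 TPM in MLL1-KO2. CST2 was at 5.01 and 4.12 TPM in Parental cells, 81.3 and 81.0 TPM in SAP30-KO1, 64.3 and 70.2 TPM in SAP30-KO2, 17.0 and 15.5 TPM in SIN3A+SIN3B-DKO1, 9.41 and 11.2 TPM in SIN3A+SIN3B-DKO2, 12.2 and 19.4 TPM in MLL1-KO1, and 25.1 and 31.1 TPM in MLL1-KO2. In both genes the SAP30-KO lines were highest, and MLL1-KO1 or SIN3A+SIN3B-DKO2 lowest. Their transcripts are 91.3% identical over the aligned bases and share 13 windows of 75 bases, so reads may have been split between them or with CST4, which shares 94 such windows with CST1. CST4 itself reached 37.1 to 148 TPM in both SAP30-KO and both SIN3A+SIN3B-DKO lines, from 15.9 and 15.7 TPM in Parental cells, but was at 13.0 and 16.6 TPM in MLL1-KO1 and was not among the 91.

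DCLK1 (a doublecortin-like kinase) and PTPN22 (a tyrosine phosphatase known for its role in lymphocytes) were low in Parental cells and uneven in the edited lines. DCLK1 was at 1.04 and 0.80 TPM in Parental cells, 2.51 to 2.83 TPM in the 4 SAP30-KO libraries, 5.74 to 6.24 TPM in the 4 SIN3A+SIN3B-DKO libraries, 16.6 and 16.8 TPM in MLL1-KO1, and 24.8 and 24.7 TPM in MLL1-KO2. PTPN22 was at 1.49 and 1.37 TPM in Parental cells, 3.71 to 4.50 TPM in SAP30-KO, 7.95 to 12.3 TPM in SIN3A+SIN3B-DKO, 12.3 and 11.98 TPM in MLL1-KO1, and 23.4 and 24.0 TPM in MLL1-KO2. For DCLK1 the 3 genotypes did not overlap, with SAP30-KO lowest and MLL1-KO highest. Other genes among the first 12 were ST6GALNAC5, a sialyltransferase of gangliosides (2.94 and 2.39 TPM in Parental, 7.42 to 15.2 TPM in edited libraries), C15orf48 (3.07 and 1.95 TPM, then 6.48 to 19.0 TPM), the basement membrane collagen chain COL4A5 (1.54 and 1.64 TPM, then 4.07 to 6.88 TPM), the acyl-CoA thioesterase relative ACOT6 (15.7 and 17.4 TPM, then 41.9 to 71.3 TPM) and the secreted protein SRPX2 (4.32 and 4.63 TPM, then 11.2 to 27.7 TPM).

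**Figure D2:**
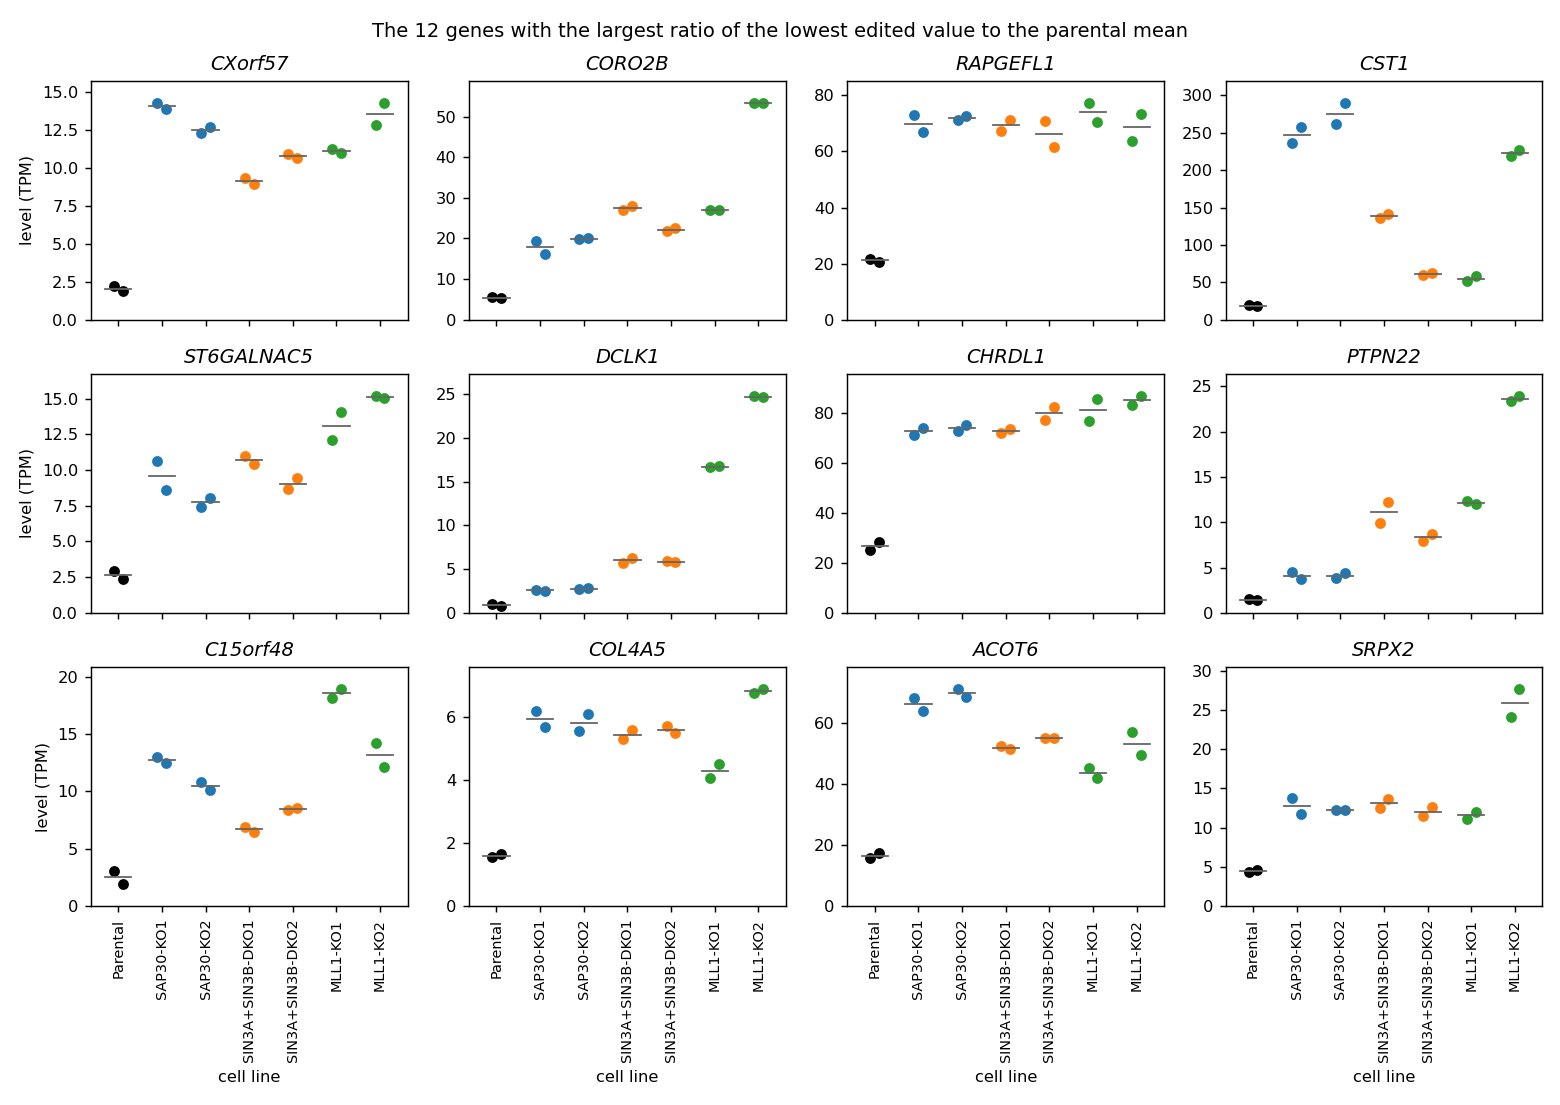
Level in TPM (vertical axes, from 0) of the 12 genes with the largest ratio of the lowest edited library to the Parental mean, in the 7 cell lines. Each point is 1 library and each grey bar the mean of 2; RAPGEFL1 and CHRDL1 are level across the edited lines, while DCLK1 and PTPN22 climb from SAP30-KO to MLL1-KO2.

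Promoter sequence was examined for the 68 genes that the RefSeq table held (GRCh38.p14, 250 bases before to 50 after the start). The ratio of observed to expected CpG, a measure of CpG islands, was at least 0.6 in 44 promoters, or 64.7%, against 83.1% of 10575 promoters of tested genes. Median GC content was 63.3% against 65.3%. The TATA box TATAAA occurred in 8 promoters (11.8%, against 5.67% of all), among them PAPPA, BCHE, TNNT1 and SLC25A5. The AP-1 motif TGAGTCA, whose reverse complement is TGACTCA, occurred in 4 (5.88% against 3.09%), those of DCLK1, ACOT6, SRPX2 and LYPD1. The TEAD motif CATTCC occurred in 12 (17.6% against 10.8%), the RUNX motif TGTGGT in 12 (17.6% against 9.18%), the E-box CACGTG in 8 (11.8% against 10.1%), the CRE core TGACGT in 6 (8.82% against 11.7%) and the SP1/KLF motif GGGCGG in 39 (57.4% against 69.9%). All motifs were searched on both strands, and a match is a string of letters, not a bound site.

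The promoters of 6 genes are shown 5′ to 3′ on the gene's strand, with matches to these motifs in capitals, to set even genes beside uneven ones. They belong to the first 8 genes by ratio, without CXorf57 and CST1. They lie at chr15:68518123-68518422 (plus strand), chr17:40177220-40177519 (plus), chr1:76867230-76867529 (plus), chrX:110795768-110796067 (minus), chr13:36131890-36132189 (minus) and chr1:113871663-113871962 (minus) of GRCh38.p14. The CpG ratio was 0.833 for the even RAPGEFL1 and 0.887 for CHRDL1, and 0.091 for DCLK1, 0.249 for PTPN22 and 0.238 for CORO2B. ST6GALNAC5 went the other way, with a ratio of 0.748 and line means 1.96-fold apart.
CORO2B: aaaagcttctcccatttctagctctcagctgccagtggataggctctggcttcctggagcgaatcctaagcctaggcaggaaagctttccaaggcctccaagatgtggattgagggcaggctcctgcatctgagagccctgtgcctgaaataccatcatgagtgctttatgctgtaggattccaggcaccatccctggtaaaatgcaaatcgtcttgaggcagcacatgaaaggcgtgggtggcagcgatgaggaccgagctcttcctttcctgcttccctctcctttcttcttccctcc
RAPGEFL1: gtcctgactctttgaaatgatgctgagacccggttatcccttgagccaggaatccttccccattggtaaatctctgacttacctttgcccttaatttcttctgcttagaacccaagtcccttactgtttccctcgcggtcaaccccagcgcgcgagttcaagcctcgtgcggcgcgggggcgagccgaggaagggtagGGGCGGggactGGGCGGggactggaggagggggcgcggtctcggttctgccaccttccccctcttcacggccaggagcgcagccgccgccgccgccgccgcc
ST6GALNAC5: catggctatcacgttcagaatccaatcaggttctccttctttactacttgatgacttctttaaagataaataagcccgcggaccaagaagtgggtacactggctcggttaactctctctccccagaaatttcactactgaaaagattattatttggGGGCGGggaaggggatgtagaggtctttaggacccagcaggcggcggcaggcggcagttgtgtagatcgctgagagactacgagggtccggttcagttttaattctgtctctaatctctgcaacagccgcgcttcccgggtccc
CHRDL1: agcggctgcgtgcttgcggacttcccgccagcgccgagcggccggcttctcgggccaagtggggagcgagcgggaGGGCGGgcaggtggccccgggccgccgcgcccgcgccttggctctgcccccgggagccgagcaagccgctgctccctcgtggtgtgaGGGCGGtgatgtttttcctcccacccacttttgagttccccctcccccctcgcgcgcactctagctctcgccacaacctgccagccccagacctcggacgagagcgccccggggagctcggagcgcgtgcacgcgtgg
DCLK1: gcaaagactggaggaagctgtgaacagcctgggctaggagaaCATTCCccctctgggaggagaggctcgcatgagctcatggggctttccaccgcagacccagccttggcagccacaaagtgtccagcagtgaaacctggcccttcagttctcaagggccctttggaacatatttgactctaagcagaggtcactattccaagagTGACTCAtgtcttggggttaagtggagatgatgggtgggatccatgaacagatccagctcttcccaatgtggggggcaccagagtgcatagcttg
PTPN22: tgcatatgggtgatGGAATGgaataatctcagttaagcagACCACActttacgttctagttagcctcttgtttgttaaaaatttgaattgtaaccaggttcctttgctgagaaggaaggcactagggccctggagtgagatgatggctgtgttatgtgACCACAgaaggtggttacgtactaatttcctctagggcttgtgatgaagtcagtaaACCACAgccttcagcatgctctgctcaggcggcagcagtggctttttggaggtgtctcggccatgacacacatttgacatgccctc
The capitals mark SP1/KLF matches in RAPGEFL1, ST6GALNAC5 and CHRDL1, an AP-1 and a TEAD match in DCLK1, and a TEAD match and 3 RUNX matches in PTPN22. Over all promoters examined, the contrast was smaller: the highest and lowest line means were a median 1.94-fold apart in the 24 genes with a CpG ratio under 0.6, whose median Parental mean was 4.37 TPM, and 1.62-fold apart in the 44 others, at 11.8 TPM. Without the X-linked genes the values were 1.96-fold for 16 genes and 1.79-fold for 33.

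At the other end of the scale, the 6 genes with the highest Parental means included 4 on the X chromosome, and in all but TNNT1 the highest and lowest edited line means were 1.06- to 1.17-fold apart. SLC25A5, the mitochondrial ADP/ATP carrier, was at 708 and 730 TPM in Parental and 1093 to 1187 TPM in edited libraries, and its line means were within 1.06-fold of each other. MORF4L2, a subunit of histone acetyltransferase and deacetylase complexes, was at 332 and 326 TPM, then 503 to 571 TPM. The ribosomal protein gene RPL10 was at 275 and 285 TPM, then 444 to 544 TPM, and FAM50A, whose product is associated with the spliceosome, at 144 and 146 TPM, then 229 to 262 TPM. Away from the X chromosome, NDUFB9 of respiratory complex I was at 147 and 157 TPM, then 232 to 285 TPM, and the slow troponin T gene TNNT1 at 99.0 and 96.6 TPM, then 164 to 278 TPM. The line means of TNNT1 were 1.68-fold apart, with MLL1-KO2 highest.

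The remaining genes covered many functions, and the grouping below by textbook role was made after the genes were known. The largest group, 16 genes named transcription, chromatin and RNA, was drawn broadly. The DNA-binding CXorf57 and the nuclear transport receptor IPO13 were placed in it. It held CXorf57, BHLHE41, ZNF75D, NXT2, DDX26B, RNF113A, ZNF425, APOBEC3D, ZCWPW1, CXXC1, FAM50A, MAEL, MORF4L2, IPO13, TOE1 and ARID5A. Their median edited libraries stood 1.62 to 5.73 times above the Parental mean, with CXorf57 highest. CXXC1 encodes the CpG-binding subunit of the SET1 histone methyltransferases, relatives of MLL1, and was even across the lines, at 23.4 and 24.2 TPM in Parental and 38.3 to 49.6 TPM in edited libraries. Its neighbour on chromosome 18 is MBD1, the gene that fell just short of the rule. BHLHE41 encodes a repressor of the circadian clock, and MAEL and ZCWPW1 are known from germ cells.

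Secreted and matrix proteins made up 15 genes (CST1, CHRDL1, COL4A5, SRPX2, CST2, TNC, ADAMTS9, OVCH2, ARTN, PINLYP, PAPPA, BCHE, STC1, APLN and CCDC80), at 1.71 to 9.58 times the Parental mean by the median edited library. Among them are ligands (ARTN of the GDNF family and the apelin receptor ligand APLN), proteases (ADAMTS9 and PAPPA, which cleaves binding proteins of insulin-like growth factors) and the matrix glycoprotein TNC. ARTN rose from 4.44 and 4.11 TPM to between 8.05 and 22.0 TPM, and STC1, a glycoprotein hormone, from 20.7 and 21.9 TPM to between 37.3 and 62.5 TPM. Intracellular signalling gave 13 genes (RAPGEFL1, DCLK1, PTPN22, PPP2R2C, PICK1, ARRB2, DEPTOR, VSNL1, GNAO1, SMAD7, TRIB1, STAC and PLK3), none of them on the X chromosome, at 1.75 to 6.53 times. Of these, SMAD7 inhibits TGF-beta signalling, DEPTOR binds the kinase MTOR, ARRB2 is a beta-arrestin and GNAO1 a G protein alpha subunit.

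Metabolism, mitochondria and protein synthesis also gave 13 genes (ST6GALNAC5, C15orf48, ACOT6, TIMM8A, CYP2J2, G0S2, RPL10, SSR4, THEM4, NDUFB9, SLC25A5, ALG13 and SPTLC3), at 1.59 to 4.57 times. The 9 genes of the cytoskeleton, cilia and trafficking were CORO2B, C16orf62 (VPS35L), EHD3, C9orf116, TNNT1, ZNF185, EML6, DNAAF3 and MAPRE3, at 1.75 to 5.44 times. Membrane proteins included the interleukin 7 receptor subunit IL7R, the calcium channel ITPR1, LYPD1, SLC10A3 and the WNT receptor FZD8, at 1.78 to 2.86 times. FBXO27, OTUB2 and RNF24 belong to the ubiquitin system, at 1.79 to 1.96 times, and BHLHB9, MAGEE1, FAM78B, LANCL3, FAM214B and ARMCX2 were placed in no group, at 1.83 to 3.89 times.

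The last 10 were noncoding RNAs and pseudogenes: LOC401074, MIR147B, LOC155060, SNORD95, MIR1204, DHRS4-AS1, ATP6AP1L, SNORA70, LOC652276 and MIR4751. These libraries were made from mRNA, so values of short RNA genes stand for reads over the annotated locus and not for mature small RNAs. MIR1204, within the long noncoding RNA PVT1, rested on 1 and 2 reads in the Parental libraries and 3 to 12 in the edited ones, and its ratio of pooled reads, scaled to depth, was 4.64 with a 95% exact counting interval of 1.54 to 22.9. SNORD95 (within RACK1) rested on 3 and 4 Parental reads, with a ratio of 3.08 (1.46 to 7.80). The rule used these same reads, so both intervals describe counting error over pooled edited libraries. They are no test of the excess, and the spread between lines does not enter them. MIR147B and SNORA70 lie within C15orf48 and RPL10, which were themselves among the 91, while PVT1, RACK1 and ATF5 (the host of MIR4751) were not. DHRS4-AS1 lies on the strand opposite to DHRS4, and whether reads were counted by strand is not given in the sources used here.

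The X chromosome stood out in the chromosome spread. It held 24 of the 91 genes, or 26.4%, and 3.17% of the positioned genes of at least 2 TPM in all edited libraries. No other chromosome came near this. Chromosome 1 held 11 genes (12.1%, against 10.1% of those expressed), chromosomes 2 and 3 held 6 each, and chromosomes 6 and 21 held none. Of the 345 X-linked genes at or above 2 TPM, 6.67% met the rule. For 5 of the 91, among them SNORA70 on the X chromosome, the chromosome was taken from RefSeq by name because the GRCh37 annotation gave no single match.

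**Figure D3:**
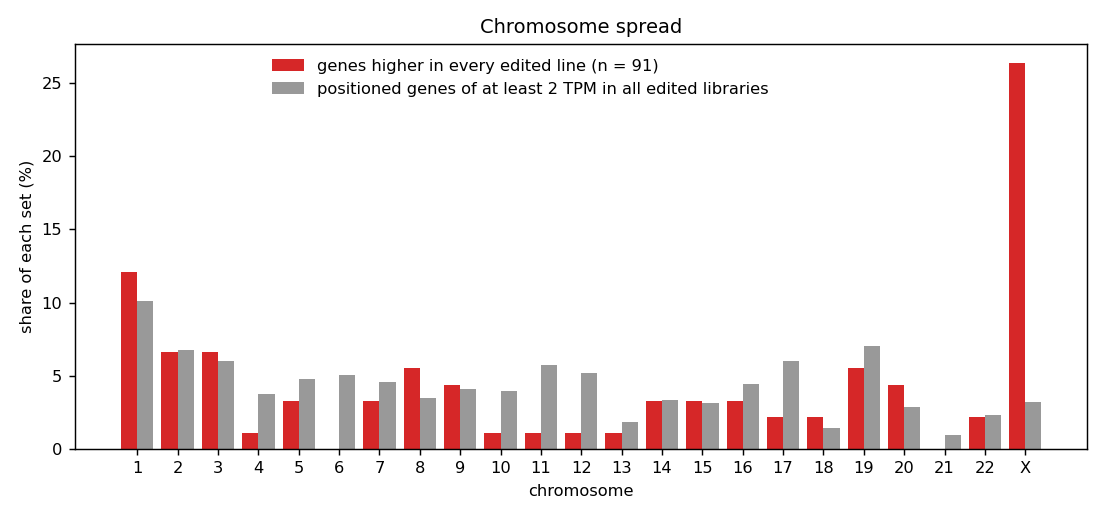
Share of the 91 genes (red bars) and of all positioned genes with at least 2 TPM in all edited libraries (grey bars) on each chromosome, in percent. The red bar of the X chromosome reaches 26.4% against 3.17% for the grey bar.

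The X-linked genes were not spread along the chromosome. Of the 23 with a GRCh37 position, 22 began beyond 70 Mb, on the long arm, where they were 11.5% of the 191 genes expressed, and LANCL3 alone lay on the short arm side, where 136 genes were expressed. In order along the long arm they included MAGEE1, SRPX2, TIMM8A, ARMCX2, BHLHB9, MORF4L2, CXorf57, COL4A5, NXT2, CHRDL1, ALG13, SLC25A5, RNF113A, APLN, ZNF75D, DDX26B, ZNF185, SSR4, RPL10, FAM50A and SLC10A3. The window from 100 to 120 Mb held 11 of the 91. The bound of 70 Mb was set from the positions of these same genes, and genes between 60 and 70 Mb were counted on neither side.

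Genes of the same region that did not meet the rule also stood above Parental. Over 226 other tested genes beyond 70 Mb, the median log2 difference from Parental was 0.57 in SAP30-KO1, 0.55 in SAP30-KO2, 0.50 in SIN3A+SIN3B-DKO1, 0.52 in SIN3A+SIN3B-DKO2, 0.36 in MLL1-KO1 and 0.39 in MLL1-KO2. Of these genes, 148 (65.5%) were above Parental in all 6 lines and 10 below in all 6. Over the 172 other genes up to 60 Mb the medians ran from -0.04 to 0.12, and 31 (18.0%) were above Parental in all 6 lines, beside 17.8% of all positioned genes outside the 91. DNA was not analysed here, so the number of gene copies and the RNA made per copy cannot be told apart, in this region or in the stretch of chromosome 1 described next.

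**Figure D4:**
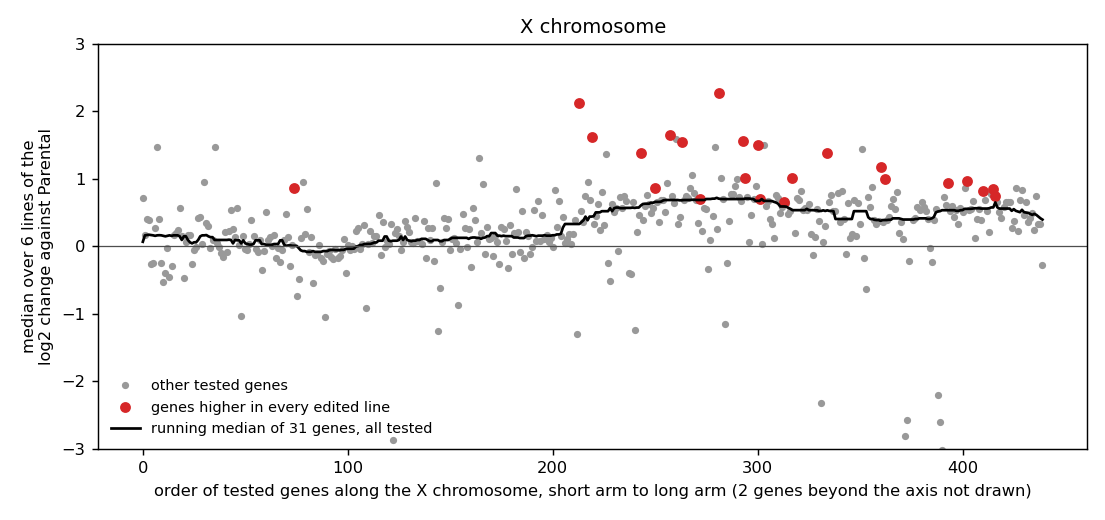
Median over the 6 edited lines of the log2 difference from Parental for the 440 tested X-linked genes, in their order along the chromosome. Red points are genes among the 91, grey points other genes, and the black line the running median of 31 genes, which stays near 0 over the short arm and above it along most of the long arm.

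To set the genes against their surroundings, the running median of 51 neighbouring tested genes was removed from each edited library, a step chosen after the data were seen. Of the 23 positioned X-linked genes, 7 still met the rule (among them SRPX2, BHLHB9, CXorf57, COL4A5, CHRDL1 and LANCL3), and of 63 positioned genes elsewhere 47 did. SLC25A5, MORF4L2, RPL10 and FAM50A no longer met it. Before the step, their lowest edited values were only 1.52 to 1.585 times the Parental mean, so a small local shift could drop them. Among the genes outside the X chromosome that dropped, the median local log2 shift ran from 0.03 (FZD8) to 0.50 (TOE1). The counts kept therefore do not separate a rise shared with neighbours from a rise of single genes. Outside the X chromosome, the largest stretch with a running median above 0.25 in every line lay on chromosome 1 between 43.28 and 46.71 Mb, with 58 tested genes, and held ARTN, IPO13, PLK3 and TOE1, none of which met the rule after the step. ARTN and IPO13 are 9710 bases apart on the same strand. The paper lists both among genes repressed by SAP30 with SIN3A and SIN3B, and reports more accessible chromatin at IPO13 in SAP30-KO1 cells. A shorter stretch on chromosome 14, between 23.49 and 24.70 Mb, held DHRS4-AS1. Other neighbouring pairs among the 91 were TNNT1 and DNAAF3 (9455 bases apart on chromosome 19), CST1 and CST2 (72501 bases apart) and RPL10, FAM50A and SLC10A3 at the end of the X chromosome.

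Differences among the edited lines were tested for each gene with limma on log2(TPM + 0.5) over 13540 genes. The rule did not choose genes by these differences, but its floor on each edited library left out genes that were low in any line, so the counts and directions below are not free of the rule and are set beside the share of all genes as a description only. A gene was called at a Benjamini-Hochberg adjusted p under 0.05 and a difference of at least 1.5-fold. The libraries of a line are not stated to come from separate cultures, so the p-values measure the spread between libraries, and lines of a genotype were averaged, so that the spread between lines does not enter them. In this fit, 128 genes (0.945% of those tested) were called higher than Parental in all 6 lines, and these included 90 of the 91, a count the rule fixed. The exception was MAEL, which in MLL1-KO1 was above Parental by 0.55 ± 0.18 (log2, SE), under the 1.5-fold minimum. Of the 38 others, 20 were under 2 TPM and 18 under 1.5 times Parental in some library.

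Between SAP30-KO and SIN3A+SIN3B-DKO, 13 of the 91 genes differed (14.3%, against 7.47% of all genes tested), 8 higher (background 4.22%) and 5 lower (background 3.25%) in SAP30-KO. CST2 was higher in SAP30-KO by 2.47 ± 0.13 (log2, SE; limma adjusted p = 1.1e-07) and CST1 by 1.498 ± 0.05 (adjusted p = 3.2e-09). For both genes the 4 SAP30-KO libraries lay above all 4 SIN3A+SIN3B-DKO libraries. PTPN22 (-1.14 ± 0.08), DCLK1 (-1.02 ± 0.07) and PINLYP, an inhibitor of phospholipase A2 (-0.77 ± 0.07), were lower in SAP30-KO. PINLYP was at 5.36 to 5.92 TPM in SAP30-KO and 8.10 to 12.2 TPM in SIN3A+SIN3B-DKO. Other called genes were APOBEC3D, ARTN, SMAD7, FZD8 and C15orf48, higher in SAP30-KO, and LOC652276 and EML6, lower.

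MLL1-KO differed from SAP30-KO in 22 of the 91 genes (24.2%, against 19.8% of all tested). In MLL1-KO 14 were higher (background 6.34%) and 8 lower (background 13.5%), and the split was 21 to 6 under quantile normalization (background 8.96% and 9.90%) and 21 to 7 under median ratio scaling (8.13% and 10.9%). Of the 11053 genes at or above 2 TPM in all edited libraries, which share that part of the rule, 5.15% were higher and 9.52% lower with the values as deposited. TNC was higher by 2.84 ± 0.05 (adjusted p = 6.4e-12), DCLK1 by 2.72 ± 0.07 (adjusted p = 5.8e-11) and PTPN22 by 1.93 ± 0.08 (adjusted p = 4.2e-09). TNC was at 18.8 and 17.8 TPM in Parental cells, 37.7 to 44.9 TPM in SAP30-KO, 47.4 to 51.9 TPM in SIN3A+SIN3B-DKO, 240 and 219 TPM in MLL1-KO1, and 390 and 405 TPM in MLL1-KO2. Both MLL1-KO lines thus lay far above the other 4, which were close together. CST2 (-1.81 ± 0.13), MAPRE3 (-1.27 ± 0.14) and CST1 (-1.23 ± 0.05) were lower in MLL1-KO. MAPRE3, the microtubule end-binding protein EB3, was at 1.86 and 1.15 TPM in Parental cells, 8.36 to 10.5 TPM in SAP30-KO, 7.92 to 8.96 TPM in SIN3A+SIN3B-DKO and 2.33 to 4.62 TPM in MLL1-KO.

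Against SIN3A+SIN3B-DKO, MLL1-KO differed in 27 of the 91 genes (29.7%, against 19.9% of all tested), with 20 higher (background 6.91%) and 7 lower (background 13.0%). The split was 23 to 4 under quantile normalization (background 9.04% and 9.98%) and 22 to 4 under median ratio scaling (8.55% and 10.6%). TNC was higher in MLL1-KO by 2.59 ± 0.05, the PP2A regulatory subunit PPP2R2C by 2.19 ± 0.04 and the membrane-anchored LYPD1 by 2.09 ± 0.07 (adjusted p from 1e-11 to 3.5e-10). PPP2R2C was at 3.41 and 3.66 TPM in Parental cells, 13.1 to 15.3 TPM in SAP30-KO, 8.19 to 13.3 TPM in SIN3A+SIN3B-DKO, 35.7 and 35.8 TPM in MLL1-KO1, and 66.8 and 65.1 TPM in MLL1-KO2. LYPD1 had the same order, from 5.19 and 5.37 TPM in Parental cells to 29.1 and 30.3 TPM in MLL1-KO1 and 58.5 and 55.9 TPM in MLL1-KO2. Lower in MLL1-KO were C9orf116, a ciliary microtubule protein (-1.23 ± 0.13), MAPRE3 (-1.07 ± 0.14) and the pseudogene LOC652276 (-0.83 ± 0.12). C9orf116 was at 3.47 and 5.34 TPM in Parental cells, 12.8 to 16.1 TPM in SAP30-KO, 18.4 to 25.8 TPM in SIN3A+SIN3B-DKO and 7.76 to 10.8 TPM in MLL1-KO.

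**Figure D5:**
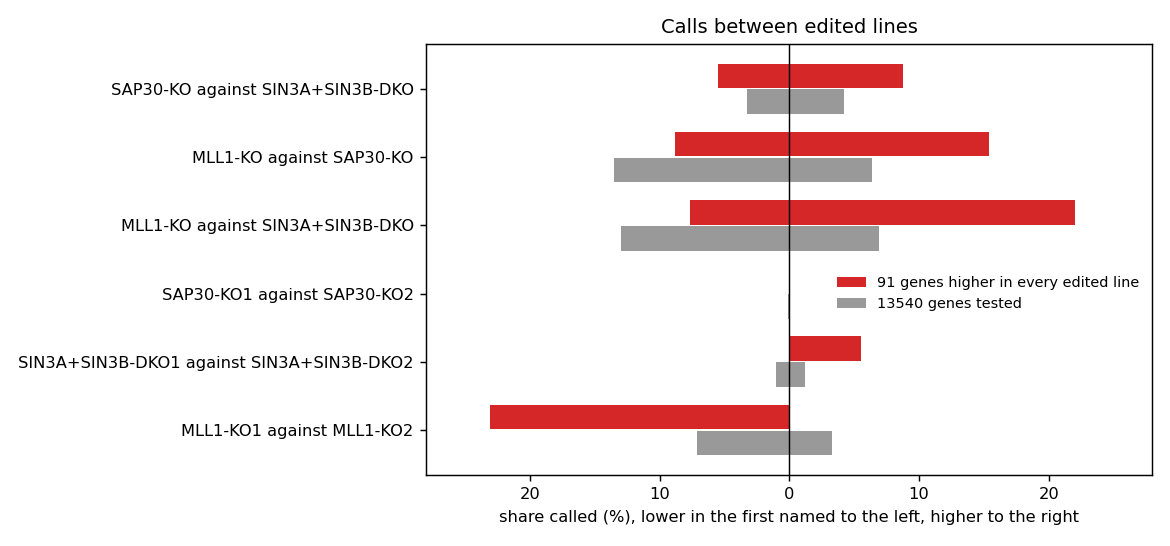
Share of the 91 genes (red bars) and of the 13540 genes tested (grey bars) called between edited lines, in percent, with genes lower in the first-named line or genotype to the left and higher to the right. In the MLL1-KO comparisons the red bars are longer to the right and the grey bars to the left, and in MLL1-KO1 against MLL1-KO2 red lies on the left side only.

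Among the 91 genes, calls between lines with the same target were found for SIN3A+SIN3B and MLL1 but not for SAP30. None was called between SAP30-KO1 and SAP30-KO2 by limma (0.148% of all tested) or by voom on recovered reads (0.222% of all tested). By limma, 16 of the 91 had an unadjusted p under 0.05. Between SIN3A+SIN3B-DKO1 and SIN3A+SIN3B-DKO2, 5 were called (5.49%, against 2.23% of all tested), all higher in SIN3A+SIN3B-DKO1 (background 1.22% higher and 1.01% lower): CST1 (1.18 ± 0.07), G0S2 (0.90 ± 0.04), CST2 (0.63 ± 0.18, adjusted p = 0.046), APOBEC3D and PPP2R2C. G0S2, an inhibitor of fat breakdown, was at 71.3 and 66.0 TPM in Parental cells, 216 and 226 TPM in SIN3A+SIN3B-DKO1 and 121 and 115.5 TPM in SIN3A+SIN3B-DKO2. Without either SIN3A+SIN3B-DKO1 library the count was 3, and CST2 lost its call when any library other than those of MLL1-KO1 was left out (0.52 to 0.75).

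MLL1-KO1 and MLL1-KO2 differed in 21 of the 91 genes (23.1%, against 10.4% of all tested), and all 21 were lower in MLL1-KO1 (background 7.15% lower and 3.27% higher). Without replicate 2 of MLL1-KO1 1 gene was called higher in MLL1-KO1, and without replicate 1 of MLL1-KO2 2 genes were. CST1 was lower by -2.01 ± 0.07, PINLYP by -1.19 ± 0.10 and SRPX2 by -1.12 ± 0.10 (adjusted p from 7.3e-09 to 6.4e-06). PINLYP was at 8.57 and 7.27 TPM in MLL1-KO1 against 17.7 and 19.7 TPM in MLL1-KO2, and SRPX2 at 11.2 and 12.1 TPM against 24.1 and 27.7 TPM. The SAP30-KO and SIN3A+SIN3B-DKO libraries held 11.45 to 13.8 TPM of SRPX2, so that replicate 1 of MLL1-KO1 was just below them, replicate 2 within their range and MLL1-KO2 above. The highest line mean was that of MLL1-KO2 for 38 of the 91 genes (41.8%), and for 23.6% of the genes of at least 2 TPM in all edited libraries.

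X-linked and other genes among the 91 differed in evenness across the edited lines. Line means were a median 1.43-fold apart in the 24 X-linked genes (1.06- to 2.73-fold) and 1.79-fold apart in the 67 others (1.12- to 9.83-fold). In at least 1 of the 3 comparisons between genotypes, 4 X-linked genes (16.7%) and 30 others (44.8%) were called, against 27.5% of all genes tested. The median Parental level of the X-linked genes was higher, 12.4 TPM against 4.75 TPM. MAGEE1, ARMCX2 and BHLHB9 were among the X-linked genes called.

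The gene lists of known pathways held few of the 91, and no list was tested as a set. For genes among the 91, a call as higher than Parental in all 6 lines repeats the rule, so these counts are a description only. Among 7 tested cystatins and relatives, CST1 and CST2 were called higher than Parental in all 6 lines and none lower in all 6. Of all genes tested, 0.945% were called higher and 2.67% lower in all 6. Reads of CST1 and CST2 may have been split between them, so they may not be separate observations. Of 211 solute carriers, 3 were called higher (SLC10A3 and SLC25A5 among them) and 6 lower in all 6 lines, of 44 collagens and matrix glycoproteins 2 higher (COL4A5 and TNC) and 5 lower, and of 46 TGF-beta and BMP pathway genes 1 higher (SMAD7) and 3 lower. The list of 441 zinc finger genes had 4 higher, among them ZNF75D, ZNF425 and ZNF185 of the 91, and 3 lower. RPL10 was the only 1 of 77 cytosolic ribosomal protein genes called higher in all 6 lines, and CXXC1 the only 1 of 19 subunits of MLL and related complexes. The lists of 24 SIN3 complex subunits, 17 heat shock chaperones, 15 cytokines and chemokines, 22 immediate early genes and 39 interferon-stimulated genes held none of the 91. The rule took 0.823% of the genes at or above 2 TPM in all edited libraries. MORF4L2, a subunit of acetyltransferase and deacetylase complexes and 1 of the 91, was not on the SIN3 list used here.

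Over the 12 edited libraries, the genes most like CXorf57 by Pearson correlation of log2(TPM + 0.5) were ZNF37BP (r = 0.96), PCDHGA4 (0.95) and HMGN5 (0.95), of which HMGN5 is X-linked. For CORO2B they were VEGFC (0.98), ANXA6 (0.98) and ARHGAP30 (0.98), and for RAPGEFL1, which varied little, CLASRP (0.88), AMH (0.86) and MAPK8IP3 (0.85). None of these 9 genes was among the 91.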

How the data were processed

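The authors sequenced mRNA libraries of unedited and edited MDA-MB-231 lines, with 2 libraries in each of 7 conditions. Per the labels' processing notes, FastQC 0.11.2, TopHat and featureCounts were used with build hg19, and the annotation is not given in the sources used here. The authors deposited 1 value per gene and library, which they named RPKM, but each library sums to 1000000, so the deposited values are TPM. TPM are relative, so a rise of some genes lowers the rest.

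Whole reads (within 0.1 of a read) were recovered for 18519 of 18519 genes above 0, giving 18415036 to 23162682 reads per library. Counting intervals cover counting error only. Of the gene names, 28 had turned into dates, none of them among the 91.

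The rule was applied to the values as deposited. Genes of at least 1 TPM in at least 2 libraries (13540) entered a linear model of log2(TPM + 0.5) with a mean for each of 7 conditions (limma 3.58.1, R 4.3.3), with 7 residual degrees of freedom and a variance trend, and the procedure was tested on simulated data. Positions came from GENCODE 44 on GRCh37 (86 of the 91), promoters from RefSeq. Alternatives covered the limits of the rule, pseudocount, filter, scaling, replicate block, single libraries and 2 steps added after the data were seen. Named genes are the edited genes, the 12 with the largest ratio, the 6 highest in Parental cells, the 3 nearest the limit on each side, the 3 called genes with the largest difference in each direction of each comparison, and list members. A gene among the 91 and a marker are not reported here by name. The 91 genes, the lists and the tests were chosen with earlier results of these data known.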

Additional observations from a re-analysis of the deposited data

Results flagged for a closer look

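Counts of the 91 genes called between edited lines or genotypes, by a test of the difference itself (limma), were 13 for SAP30-KO against SIN3A+SIN3B-DKO, 22 for MLL1-KO against SAP30-KO, 27 for MLL1-KO against SIN3A+SIN3B-DKO, 5 for SIN3A+SIN3B-DKO1 against SIN3A+SIN3B-DKO2 and 21 for MLL1-KO1 against MLL1-KO2. The log2 differences of SAP30-KO from SIN3A+SIN3B-DKO that stood out were 2.47 for CST2, 1.498 for CST1, -1.14 for PTPN22, -1.02 for DCLK1 and -0.77 for PINLYP. For MLL1-KO against SAP30-KO they were 2.84 for TNC, 2.72 for DCLK1, 1.93 for PTPN22, -1.81 for CST2, -1.27 for MAPRE3 and -1.23 for CST1. For MLL1-KO against SIN3A+SIN3B-DKO they were 2.59 for TNC, 2.19 for PPP2R2C, 2.09 for LYPD1, -1.23 for C9orf116, -1.07 for MAPRE3 and -0.83 for LOC652276. SIN3A+SIN3B-DKO1 differed from SIN3A+SIN3B-DKO2 by 1.18 for CST1, 0.90 for G0S2 and 0.63 for CST2, and MLL1-KO1 from MLL1-KO2 by -2.01 for CST1, -1.19 for PINLYP and -1.12 for SRPX2. Groups of 2 libraries are too small for a test of single outlying samples.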

How the results depend on the processing

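The number of genes meeting the rule was 25 at 2 times the Parental mean and 309 at a minimum midway between 1 and 1.5 times, and 67 at 5 TPM, 108 at 1 TPM, 68 against the higher Parental library, 120 under quantile normalization (88 of the 91 among them) and 95 under median ratio scaling (84 among them). Leaving out each library gave 91 to 103 genes, where leaving out an edited library could only keep or raise the count. After removal of the running median of 51 neighbouring genes, an alternative chosen after seeing the data, 68 genes met it, 54 of the 91 among them. SLC25A5 fell to a ratio of 1.44 under quantile normalization.

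With a 2-fold minimum in place of 1.5-fold, calls among the 91 were 5 for SAP30-KO against SIN3A+SIN3B-DKO, 12 for MLL1-KO against SAP30-KO, 13 for MLL1-KO against SIN3A+SIN3B-DKO, 1 for SIN3A+SIN3B-DKO1 against SIN3A+SIN3B-DKO2 and 5 for MLL1-KO1 against MLL1-KO2, where 2.13%, 8.58%, 8.85%, 0.820% and 3.16% of all tested genes were called. With no fold minimum they were 47, 61, 64, 18 and 48 (48.6%, 67.8%, 67.8%, 12.5% and 42.1% of all tested), with 1 for SAP30-KO1 against SAP30-KO2 (0.524%). For SIN3A+SIN3B-DKO1 against SIN3A+SIN3B-DKO2 the count was 3 with a pseudocount of 1 (1.77% of all tested) and 8 (2.97%) with voom on recovered reads, also chosen after seeing the data. Leaving out each library gave 11 to 15, 21 to 23, 25 to 29, 0 to 0, 3 to 5 and 20 to 22 calls for the 6 comparisons in the order of the text. CST2 between the SIN3A+SIN3B-DKO lines lost its call with no filter on low values and when any 1 library other than those of MLL1-KO1 was left out (0.52 to 0.75). None of the differences given for single genes between edited lines changed sign under the alternatives run. The median of all genes against Parental moved by at most 0.12 between scalings, in MLL1-KO1 (-0.09 as deposited, 0.03 under quantile normalization), and in MLL1-KO2 it was -0.04 and 0.01.

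Same-numbered libraries did not deviate together (correlations of -0.07 to 0.08 over 21 pairs of groups), so the replicate numbers do not pair the samples. The replicate block left the counts of calls at 13, 22, 27, 0, 5 and 21. Genes with few reads, the small RNA loci above all, are imprecise at this depth.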
